A study of Sus scrofa with 36 samples.

Results

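Genes that write, erase or read marks on histones, or that move nucleosomes, were followed in pig hearts over the first 4 weeks of life. Members were the protein coding genes of the gene count table whose name begins with KDM, KMT, SETD, HDAC, SIRT, PRDM, ARID, SMARC, BRD or PRMT, with DNMT, or with TET, KAT or CHD and a number. Of 9815 genes in the table as used here, 39 fitted these names, and 36 reached 10 counts in 3 or more libraries and could be tested, among 5526 genes tested in all. PRDM7, PRDM12 and PRDM13 never exceeded 2 counts in a library and were left out. The table covers chromosomes 1, 2, 6 and 13, so family members on other chromosomes were not analysed here, and no gene named DNMT or TET was among those measured.

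The study examined RNA of Yorkshire pig hearts, from animals of both sexes that were fed normally, on postnatal days 1, 3, 7 and 28 (P1, P3, P7 and P28). The values here come from batch cd, sequenced by CD Genomics as total RNA without ribosomal RNA, with 12 libraries from 12 hearts, 3 at each age. No group carried a transgene, an injury or a drug treatment, and the groups differ by age alone as far as the labels say. Libraries are named by age and by the number 4, 5 or 6 in the name of their column. Levels are given as CPM, counts scaled to the size of the library, after adjustment of the library sizes by the trimmed mean of M values (TMM). In bulk tissue, fewer cells of a type and less RNA per cell cannot be told apart.

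DNA in the nucleus is wound around histones, and chemical groups on the histone tails help decide which genes can be read. Methyltransferases (KMT, SETD, some PRDM proteins and PRMT) and acetyltransferases (KAT) add such groups, and demethylases (KDM) and deacetylases (HDAC and SIRT) take them off. Bromodomain proteins (BRD) bind to acetylated histones, and remodelers such as the BAF complex (ARID and SMARC) and the CHD helicases slide or evict nucleosomes. In heart muscle these proteins are known for their part in the growth of the embryonic heart and in the closing of cell cycle genes after birth.

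In the gene table libraries held between 8887176 and 14883849 counts, and mean counts per member ranged from 27.25 for CHD5 to 6946 for SMARCA2. A signal recognition particle RNA took 7.09% to 19.7% of the counts of a library in this table. All 9 cardiomyocyte markers with a row, among them ACTC1, MYBPC3, TNNI3 and MYL3, were expressed, with summed levels between 73766 and 103878 CPM per library. P3 replicate 5 stood apart. It had the highest level of all 12 libraries for 17 of the 36 members (47.2%) and for 22.2% of all genes tested, and results are given below with and without it. P1 replicate 4 had the lowest level for 10 members (27.8%) and for 10.2% of all genes.

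Most of these genes were expressed at every age and varied little between ages. Per kilobase of transcript, the highest mean levels were those of SMARCA2 (75.9 CPM per kb), an ATPase of the BAF remodeler, PRMT1 (74.4), the main enzyme of asymmetric arginine dimethylation, BRD7 (73.7), a bromodomain subunit of the related PBAF remodeler, KDM1A (71.1), a lysine demethylase also called LSD1, and KAT2B (66.6), an acetyltransferase also called PCAF. The lowest were CHD5 (0.230 CPM per kb), PRDM1 (2.14) and SETD4 (2.74), and the median over the 36 members was 26.6 CPM per kb. The ratio of the highest to the lowest age mean was below 1.5 in 29 of the 36 members, with a median of 1.29, against a median of 1.49 over all genes tested. All genes tested include noncoding genes, and they were not matched to the members for level, although low counts alone can raise this ratio. The summed level of the 36 members was 6413 ± 247 CPM at P1, 6817 ± 689 at P3, 6292 ± 266 at P7 and 6752 ± 134 at P28 (SD, n = 3 each). After TMM the P7 libraries (6010 to 6539 CPM) were all below the P28 libraries (6622 to 6890 CPM), while the P1 and P3 ranges overlapped with the others. That gap depends on the scaling. As a share of all counts, without TMM, the members took 0.626% to 0.747% at P7 and 0.633% to 0.677% at P28, and these ranges overlapped. The 7 members with a ratio above 1.5 were ARID4A, BRD3, ARID3A, KMT2B, PRDM1, PRDM16 and CHD5.

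**Figure D1:**
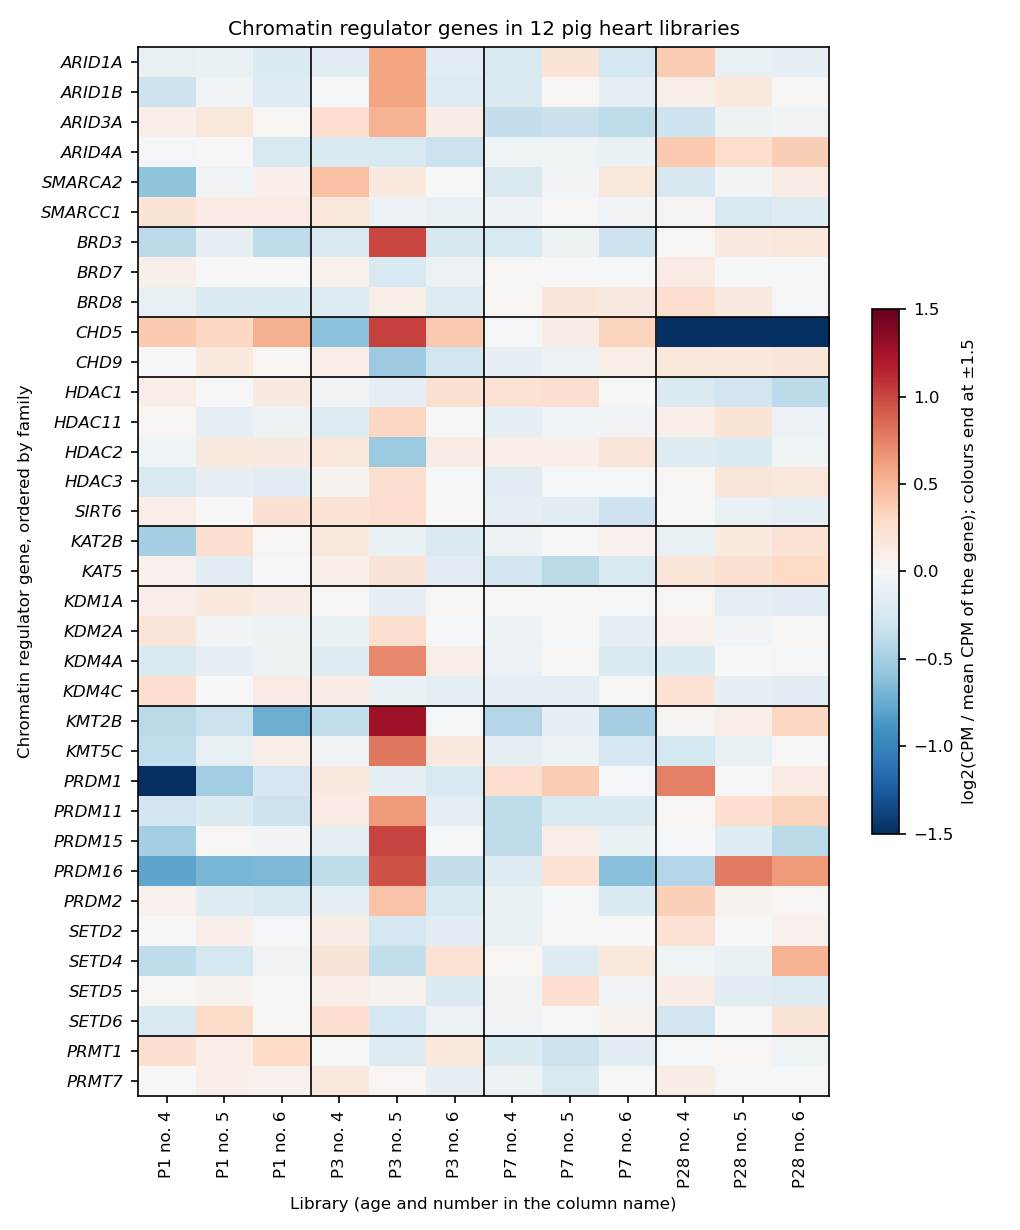
Level of 35 of the 36 members (vertical axis, by family) in the 12 libraries (horizontal axis, 3 per age), as the log2 ratio of its CPM to its mean CPM over the 12 libraries, with colours that end at ±1.5. CHD5 is low in all 3 P28 libraries, and P3 replicate 5 (shown as P3 no. 5) is the highest library for 17 of the 36 members.

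P1 was compared with each later age, as the study did, and P7 with P28, to place a change before or after the first week. Differences are log2 fold changes of the later against the earlier age, from edgeR's quasi-likelihood test over all 4 ages. A gene was called at a Benjamini-Hochberg adjusted p under 0.05 over all 5526 genes. A second rule, called the study's rule below, takes the cutoffs of the study. It asks that the unadjusted p does not exceed 0.05 and that the log2 fold change is above 0.5 in either direction. The study gives these cutoffs for circRNAs, tested with DESeq2 and Linnorm, and here they are set on the p-values of edgeR. The 3 libraries of an age are separate samples of heart tissue. Each test sets a difference against 1 spread per gene, estimated within all 4 ages together and moderated over genes. A library of an age outside a comparison can thus change its p-value.

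Between P1 and P3 edgeR called 0 of the 36 members, where 0.0543% of all genes were called. An unadjusted p under 0.05 was reached by 5 members and by 15.2% of all genes, and DESeq2 called 0 members and 2.21% of all genes. Under the study's rule 4 members passed, BRD3, KMT2B, PRDM11 and PRDM16, which is 11.1% of the members against 10.6% of all genes. All 4 were higher at P3, a direction that 6.95% of all genes took under this rule. None of the 4 has an unadjusted p under 0.05 without P3 replicate 5, where the log2 fold change of PRDM11 was 0.26 (SE 0.12). The median log2 fold change of the members was 0.08, and that of all genes 0.01.

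Between P1 and P7 edgeR again called 0 members, beside 2.01% of all genes. Here 5 members had an unadjusted p under 0.05 (ARID3A, BRD8, PRDM1, PRMT1 and SIRT6), against 16.1% of all genes, and DESeq2 called 1, PRMT1, against 6.59% of all genes. Under the study's rule 1 member passed, PRDM1, against 11.7% of all genes. The medians were 0.00 for the members and -0.01 for all genes.

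Between P1 and P28, 3 members were called (8.33%), against 15.3% of all genes. ARID4A and PRDM1 were higher at P28, a call that 7.38% of all genes received, and CHD5 was lower, as were 7.93% of all genes. The study's rule picked CHD5, PRDM1 and PRDM16, beside 23.1% of all genes. Between P7 and P28, 4 members were called (11.1%), against 18.8% of all genes. ARID4A and KAT5 were higher at P28 (8.34% of all genes were called higher), and CHD5 and HDAC1 were lower (10.5% of all genes). The study's rule kept CHD5 and KAT5 in this interval, beside 25.1% of all genes. The median log2 fold change at P28 was 0.07 for the members and 0.00 for all genes against P1, and 0.12 and 0.01 against P7, where 27 of the 36 members and 51.2% of all genes were above 0. One test of any difference between the 4 ages called ARID3A, ARID4A, CHD5 and KAT5 (11.1% of the members and 21.4% of all genes), and 9 members had an unadjusted p of 0.05 or less in it, against 37.5% of all genes. With all 12 libraries, and apart from P1 versus P3 under the study's rule, the share of members that passed a rule lay below that of all genes in each comparison. Where edgeR called 0.0543% of all genes, between P1 and P3, a count of 0 among 36 members says little. Without P3 replicate 5 the order between P1 and P28 was the reverse, with 10 of the 36 members called against 25.6% of all genes. Comparisons with P1 share the P1 libraries, and comparisons with P28 share the P28 libraries.

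The precision was enough to bound most differences. The median standard error of a member's log2 fold change was 0.17. At P28 against P1 the 95% interval lay within ±1 on the log2 scale for 32 of the 36 members, all but CHD5, KMT2B, PRDM1 and PRDM16, but within ±0.5 for 13 only. At P28 against P7 the counts were 33 and 16. The libraries of P1 and P28 did not overlap in 17 members, 11 of them higher and 6 lower at P28, while 44.4% of all genes did not overlap. For P7 and P28 this held for 10 members that were higher and 3 that were lower at P28, with 47.0% for all genes, for P1 and P7 for 3 higher and 7 lower at P7, with 30.6%, and for P1 and P3 for 4 higher and 1 lower at P3, with 16.0%.

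**Figure D2:**
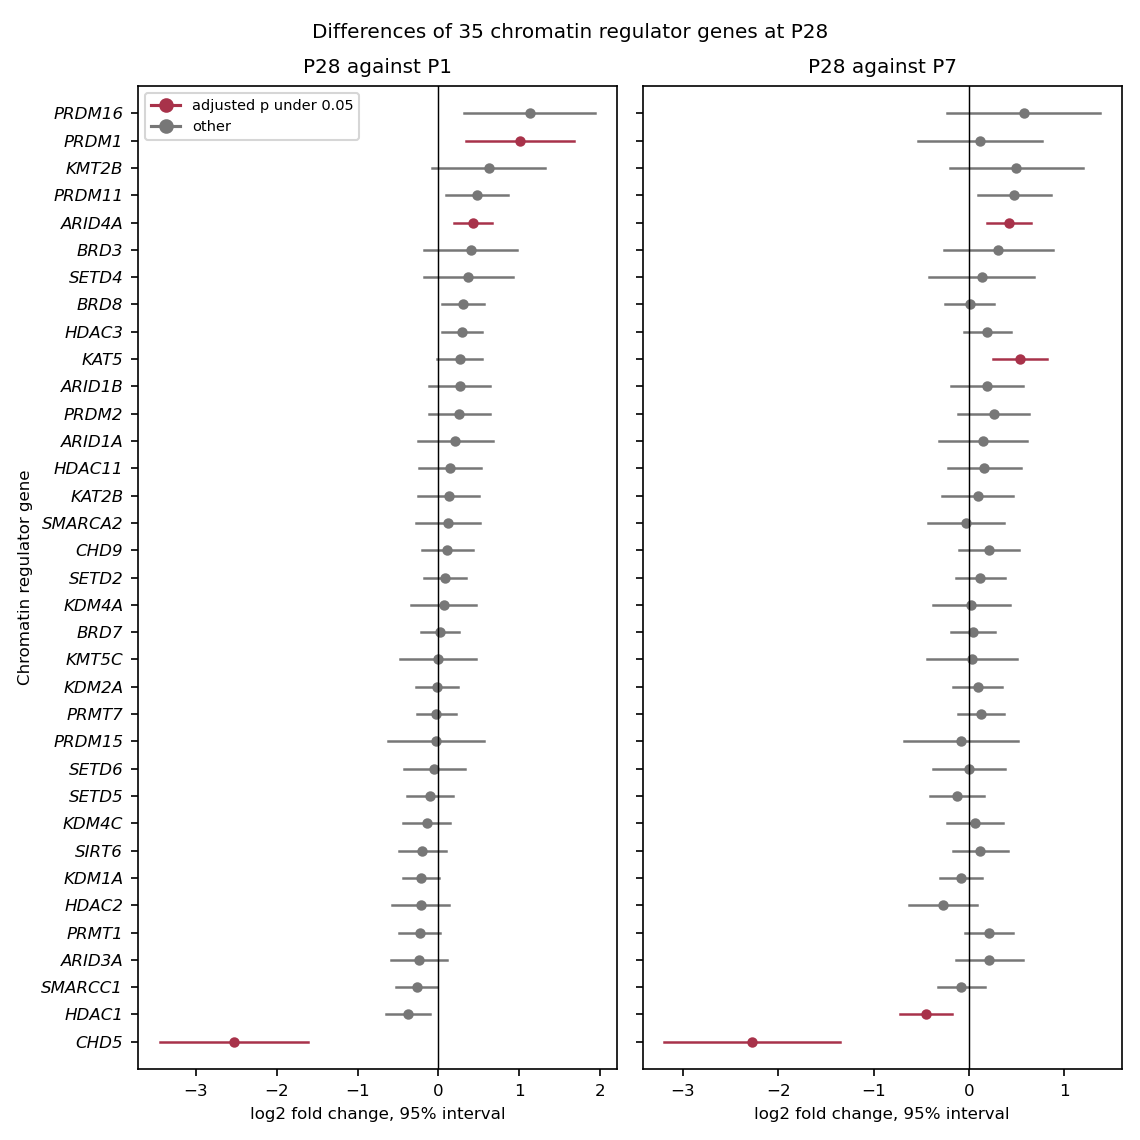
Log2 fold change of 35 of the 36 members at P28 against P1 (left) and against P7 (right), with 95% intervals from the edgeR fit, ordered by the left panel. Genes at an adjusted p under 0.05 are in red, 3 on the left and 4 on the right, and CHD5 is the only member whose estimate lies below -1.

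CHD5, a chromodomain helicase of the deacetylase-bound NuRD type that is best known from neurons and testis, had the largest change of the members. It is ENSSSCG00000003366, at chr6:67017425-67087043 in the positions of the count table. Its levels were 2.99, 2.81 and 3.30 CPM at P1, 1.48, 4.61 and 2.97 at P3, 2.25, 2.46 and 2.86 at P7 and 0.642, 0.494 and 0.394 at P28, for numbers 4, 5 and 6 in this order. All 3 P28 libraries lay below each of the other 9. The mean at P1 was 5.94 times that at P28, and CHD5 fell by 2.53 on the log2 scale from P1 to P28 (SE 0.42, adjusted p = 0.00232) and by 2.27 from P7 to P28 (SE 0.43, adjusted p = 0.00339). It was called in 20 of 20 alternatives in both comparisons, with log2 fold changes of -2.74 to -2.39 against P1. The P28 values rest on 8, 6 and 4 counts, so its level at P28 is known with low precision, and no other gene of the table overlaps it. CHD9, the other member of this family, was one of the most abundant members with a mean of 554 CPM, and its means were 577 ± 33.1 CPM at P1, 478 ± 109 at P3, 538 ± 42.8 at P7 and 623 ± 5.78 at P28 (SD, n = 3). The difference of CHD9 between P28 and P1 was 0.11 (95% interval -0.21 to 0.43).

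Among the ARID and SMARC genes, ARID4A was called in both comparisons with P28. ARID4A binds the retinoblastoma protein and belongs to the SIN3 complex, which carries histone deacetylases. The gene is ENSSSCG00000005073, at chr1:187385332-187452540. Its levels were 91.3, 92.4 and 79.1 CPM at P1, 79.5, 78.8 and 74.1 at P3, 88.6, 88.3 and 86.5 at P7 and 122, 111 and 120 at P28. The P28 libraries were above all others, and P3 had the lowest mean of the ages. The log2 fold change at P28 was 0.42 against P1 (SE 0.11, adjusted p = 0.0207) and 0.42 against P7 (SE 0.11, adjusted p = 0.0181). The calls held in 16 of 20 and 13 of 20 alternatives, with the sign the same in all. The highest adjusted p was 0.108 against P1, without P1 replicate 6, and 0.147 against P7, with library totals alone. Without P28 replicate 6 the adjusted p was 0.0696 against P1 and 0.0600 against P7. A small nuclear RNA gene of 107 bases lies within ARID4A.

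ARID3A, a DNA-binding protein of the same ARID domain class, was called only in the test over the 4 ages (adjusted p = 0.0402), and there in 7 of 19 alternatives, not in the fit with the replicate number as a block. The gene is ENSSSCG00000037642, at chr2:77431064-77464628. Its levels were 16.6, 17.6 and 15.9 CPM at P1, 18.7, 22.5 and 16.9 at P3, 12.2, 12.4 and 12.0 at P7 and 12.6, 14.8 and 15.1 at P28. All 3 P7 libraries were below the other 9, and P3 had the highest mean. In pairs of ages ARID3A passed no test, with -0.45 at P7 against P1 on the log2 scale (SE 0.16, adjusted p = 0.169). The 4 other genes of this group, SMARCA2, SMARCC1, ARID1A and ARID1B, are subunits of the BAF remodeler proper, ARID1A and ARID1B being alternatives for one place in it. None of the 4 was called by edgeR or by DESeq2 in a pair of ages, and 1 of them, SMARCC1, had an unadjusted p under 0.05 at P28 against P1. SMARCA2 had the highest mean of all members, 582 CPM, with 518 ± 119 at P1, 673 ± 111 at P3, 574 ± 75.1 at P7 and 563 ± 69.9 at P28 (SD, n = 3). SMARCC1 was 255 ± 8.82 CPM at P1 and 212 ± 21.2 at P28 (log2 fold change -0.27, adjusted p = 0.135).

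Of the deacetylases, HDAC1 was lower at P28. HDAC1 and HDAC2 are the paired catalytic subunits of the SIN3, NuRD and CoREST complexes. HDAC1 is ENSSSCG00000003613, at chr6:88749634-88785412, and no other gene of the table overlaps it. Its levels were 127, 118 and 130 CPM at P1, 114, 107 and 139 at P3, 137, 139 and 118 at P7 and 101, 97.8 and 90.0 at P28. Each P28 library was below each library of the other 3 ages. HDAC1 fell by 0.45 on the log2 scale from P7 to P28 (SE 0.13, adjusted p = 0.0268, called in 15 of 20 alternatives). Against P1 the log2 fold change was -0.37 (SE 0.13, adjusted p = 0.0648). The adjusted p of the P7 comparison ranged from 0.00716 to 0.0993 over the alternatives, and it was above 0.05 without P7 replicate 4 or 5 and without any 1 of the P28 libraries.

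HDAC2, at 169 CPM the most abundant of the 5 deacetylases among the members, had means of 177 ± 14.3 CPM at P1, 162 ± 41.2 at P3, 184 ± 6.54 at P7 and 152 ± 8.34 at P28 (SD, n = 3). Its 3 P28 libraries were all below the P7 libraries, and the log2 fold change was -0.27 (SE 0.16, adjusted p = 0.280). HDAC3, the enzyme of the NCoR and SMRT complexes, was 82.9 ± 2.66 CPM at P1 and 102 ± 5.99 at P28 (log2 fold change 0.29, adjusted p = 0.0973). HDAC11 and SIRT6, an NAD-dependent deacetylase, passed no test over ages with edgeR or DESeq2, and SIRT6 had an unadjusted p under 0.05 between P1 and P7. HDAC3 was picked for mention after its values were seen.

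KAT5, also called TIP60, is the acetyltransferase of the NuA4 complex and takes part in the DNA damage response. It is ENSSSCG00000012980, at chr2:6560513-6572466. Its levels were 65.3, 56.0 and 62.9 CPM at P1, 66.1, 72.0 and 56.0 at P3, 51.7, 47.5 and 53.6 at P7 and 71.0, 73.3 and 77.2 at P28. The 3 P7 libraries were the lowest of the 12, and 2 of the 3 P28 libraries were the highest, with the third below 1 P3 library. The log2 fold change at P28 against P7 was 0.54 (SE 0.13, adjusted p = 0.0130), and the call held in 18 of 20 alternatives. The call of KAT5 over the 4 ages held in 7 of 19, not in the fit with the replicate number as a block. At P28 against P1 it was 0.27 (SE 0.13, adjusted p = 0.182). KAT5 shares 6215 bases of its position with RNASEH2C and the strand setting of the counts is not given, so reads of the 2 genes may not be separated. RNASEH2C itself was 97.0 ± 3.87 CPM at P7 and 93.4 ± 6.72 at P28 (log2 fold change -0.06). The other acetyltransferase, KAT2B, had means between 426 and 468 CPM at the 4 ages and no unadjusted p under 0.05 in a pair of ages.

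**Figure D3:**
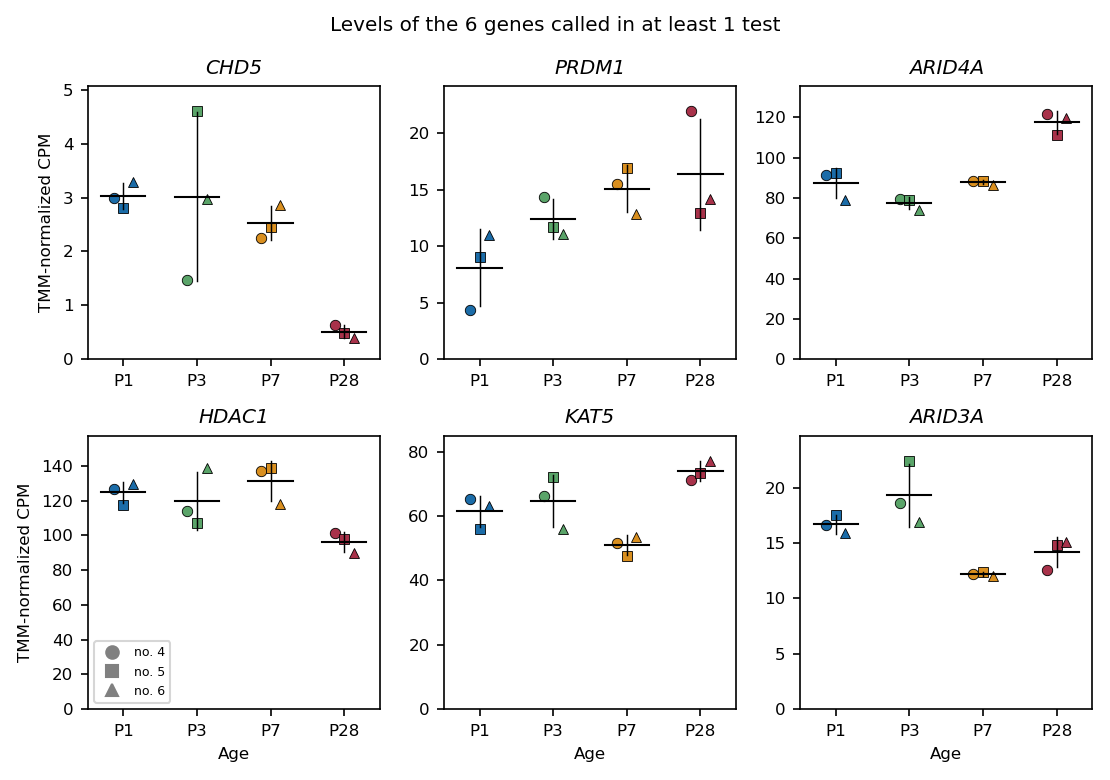
TMM-normalized CPM (vertical axes, from 0) of the 6 members called in at least 1 test, for each of the 12 libraries by age. Symbols give the number of the library, horizontal lines the mean and vertical lines 1 SD (n = 3), and CHD5 and HDAC1 have their 3 lowest values at P28, ARID4A its 3 highest.

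The group of KMT, SETD and PRDM genes was the largest, with 11 members. In pairs of ages 1 of them was called, between P1 and P28, where 15.3% of all genes were called. PRDM1, also called Blimp-1, is a repressor best known for the last step of plasma cell differentiation. It is ENSSSCG00000004369, at chr1:72311880-72335466. Its levels were 4.33, 9.07 and 11.0 CPM at P1, 14.4, 11.7 and 11.1 at P3, 15.5, 16.9 and 12.8 at P7 and 22.0, 12.9 and 14.2 at P28. The P1 libraries were below all 9 later ones, and P1 replicate 4 was the lowest and P28 replicate 4 the highest library. The log2 fold change at P28 against P1 was 1.01 (SE 0.31, adjusted p = 0.0433), and it was called in 9 of 20 alternatives with a range of 0.71 to 1.28. With the replicate number as a block the log2 fold change was 1.00 and the call was lost (adjusted p = 0.0733). Without P1 replicate 4 it was 0.71 (adjusted p = 0.0983), and without P28 replicate 4 it was 0.73 (adjusted p = 0.166). PRDM1 lies in full, over 23587 bases, within a stretch also given to ATG5, whose own log2 fold change was -0.02.

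Markers of white blood cells moved in the same comparison as PRDM1. The summed level of the 7 leukocyte markers was 1086 to 1266 CPM at P1, 1036 to 1080 at P3, 731 to 1009 at P7 and 1218 to 1710 at P28. Of these 7, TYROBP and C1QB were called higher at P28 against P1 and 4 against P7. PRDM1 was 15.1 ± 2.09 CPM at P7, where the leukocyte sum was lowest, and 16.4 ± 4.91 CPM at P28 (SD, n = 3), a difference of 0.12 on the log2 scale (95% interval -0.54 to 0.77). The part of leukocytes in the level of PRDM1 at P28 was not tested.

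PRDM16, a zinc finger factor known from brown fat and from the compact wall of the ventricle, had the largest positive log2 fold change of the members at P28 against P1, 1.13 (SE 0.37, adjusted p = 0.0597). Its levels were 32.5, 35.2 and 35.4 CPM at P1, 43.4, 109 and 44.1 at P3, 49.7, 65.4 and 36.6 at P7 and 41.8, 96.8 and 87.7 at P28. All later libraries were above the P1 libraries, and the P28 libraries split into 1 low and 2 high. It was called in 6 of 20 alternatives (log2 fold change 0.91 to 1.42, adjusted p 0.0152 to 0.185), among them the fit with the replicate number as a block (log2 fold change 1.06, adjusted p = 0.0344). SETD2, the most abundant of this group at 483 CPM and the enzyme that marks the bodies of transcribed genes, had means of 488 ± 17.0 CPM at P1, 452 ± 62.5 at P3, 475 ± 20.5 at P7 and 516 ± 40.9 at P28 (SD, n = 3). SETD5 and SETD6 had log2 fold changes between -0.13 and 0.03 in all 4 comparisons. SETD6 shares 3063 bases with CNOT1, which had a mean of 10365 counts against 741.5 for SETD6, so its counts may include reads of CNOT1.

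A set of members was high in 1 library of P3. KMT2B, a lysine methyltransferase of promoters, was 307 CPM in P3 replicate 5, against 98.5 and 125 CPM in the other P3 libraries. Its levels were 96.7, 102 and 77.0 CPM at P1, 93.9, 116 and 90.5 at P7 and 131, 135 and 158 at P28, so that the P28 libraries were above all P1 and P7 libraries. BRD3, a bromodomain protein of the BET class, was 415 CPM in P3 replicate 5, against 179 and 175 in the other P3 libraries. In the remaining ages BRD3 was 157, 190 and 159 CPM at P1, 177, 196 and 166 at P7 and 210, 227 and 231 at P28, again with all P28 libraries above those of P1 and P7. PRDM11 was 117 CPM in P3 replicate 5 and 81.4 and 67.7 CPM in the other P3 libraries. Its levels were 61.7, 65.0 and 60.4 CPM at P1, 57.9, 64.3 and 64.9 at P7 and 76.3, 89.5 and 94.8 at P28.

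In P3 replicate 5 the level was 2.75 times the mean of the other P3 libraries for KMT2B, 2.50 times for PRDM16, 2.35 times for BRD3, 2.13 times for PRDM15 and 2.07 times for CHD5. These 5 members (13.9%) were over a log2 ratio of 1, against 7.94% of all genes tested, and the median log2 ratio was 0.19 over the members and -0.03 over all genes. HDAC2 was the member lowest in this library relative to the others of P3, at 0.617 times their mean. This library had the fewest counts of the 12, and the summed level of smooth muscle and pericyte markers was 1281 CPM in it, against 529 and 701 CPM in the other P3 libraries. Endothelial markers summed to 1692 CPM in it, against 920 and 1181 CPM, and fibroblast markers to 6086 CPM, against 2891 and 4272 CPM. Whether depth or cell makeup had a part in the high levels was not tested. KMT2B, BRD3 and PRDM15 were named after their values were seen.

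Without P3 replicate 5, 10 of the 36 members were called at P28 against P1, a larger share than the 25.6% of all 5509 genes tested. The 8 higher ones were ARID4A, BRD3, BRD8, HDAC3, KMT2B, PRDM1, PRDM11 and PRDM16, and the 2 lower ones CHD5 and HDAC1. P3 is not an age of this comparison, but its libraries enter the fit through the spread, the library scaling and the set of genes tested. The SE of KMT2B went from 0.32 to 0.15. Which of these parts of the fit changed the calls was not tested. The log2 fold changes were 0.62 for KMT2B (adjusted p = 0.0114), 0.40 for BRD3 (SE 0.10, adjusted p = 0.0141), 1.13 for PRDM16 (SE 0.28, adjusted p = 0.0152) and 0.48 for PRDM11 (SE 0.11, adjusted p = 0.0102). HDAC3 and BRD8 were at 0.29 (adjusted p = 0.0249) and 0.30 (adjusted p = 0.0277). With all 12 libraries the adjusted p of KMT2B was 0.211 and that of BRD3 0.328. Between P7 and P28, 8 members were called without this library, against 28.3% of all genes, namely ARID4A, BRD3, KAT5, KMT2B and PRDM11 as higher and CHD5, HDAC1 and HDAC2 as lower. The test over the 4 ages then called 11 members, against 30.9% of all genes.

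**Figure D4:**
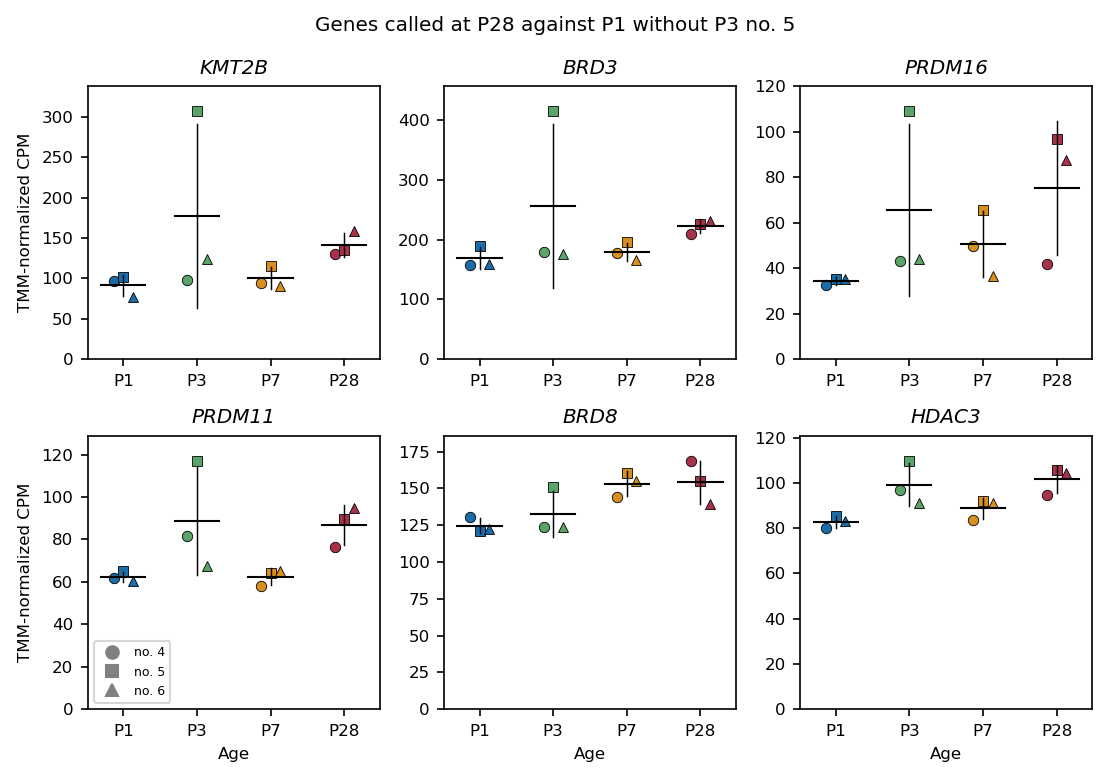
TMM-normalized CPM (vertical axes, from 0) by age of the 6 members that edgeR called higher at P28 against P1 without P3 replicate 5 (square, no. 5) and did not call with all 12 libraries. Horizontal lines are means and vertical lines 1 SD (n = 3), and in KMT2B, BRD3 and PRDM16 the P3 square, at 307, 415 and 109 CPM, is the highest of the 12 values.

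BRD8, a bromodomain subunit of the complex that holds KAT5, was 125 ± 5.01 CPM at P1, 133 ± 15.5 at P3, 153 ± 8.26 at P7 and 154 ± 14.7 at P28 (SD, n = 3). All P7 and P28 libraries of BRD8 were above its P1 libraries, with log2 fold changes of 0.30 (adjusted p = 0.239) and 0.31 (adjusted p = 0.103) against P1. BRD8 shares 233 bases with KIF20A, a mitotic kinesin whose level fell by 3.05 on the log2 scale from P7 to P28. BRD7 differed by 0.02 between P28 and P1. Of the members named here, ARID1B, SMARCA2, SMARCC1, BRD3, BRD7, HDAC11, KDM1A, SETD5, SETD6 and PRMT7 also overlap another gene of the table, and their counts may include its reads.

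No demethylase among the members was called in a pair of ages by edgeR or DESeq2, and none had an unadjusted p under 0.05. They were 4 genes, and edgeR called 15.3% of all genes between P1 and P28 and 18.8% between P7 and P28, so a count of 0 does not set them apart. KDM2A was the most abundant of the 4 members at 273 CPM, with means of 278 ± 27.4 CPM at P1, 281 ± 35.3 at P3, 258 CPM at P7 and 275 ± 10.1 at P28 (SD, n = 3). The difference of KDM2A between P28 and P1 was -0.02 on the log2 scale. KDM4A had the smallest p of this family over the 4 ages, with 247 CPM in P3 replicate 5 and 129 to 160 CPM in the other 11 libraries. KDM1A was 211 ± 3.53 CPM at P1 and 182 ± 14.5 at P28, with no overlap between the libraries of these ages and a log2 fold change of -0.21 (adjusted p = 0.180). Log2 fold changes of the 4 demethylases at P28 against P1 lay between -0.21 and 0.07.

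Of the arginine methyltransferases, PRMT1 was lowest at P7. Its levels were 467, 422 and 484 CPM at P1, 396, 344 and 440 at P3, 342, 319 and 350 at P7 and 391, 402 and 376 at P28. Each P7 library was below each P1 library, at -0.44 on the log2 scale (SE 0.12, adjusted p = 0.0664), and the call was made in 4 of 20 alternatives. At P28 against P1 it was -0.23 (95% interval -0.48 to 0.02). PRMT1 shares 3735 bases with BCL2L12. PRMT7, the enzyme of monomethylation, was 186 ± 5.41 CPM at P1 and 183 ± 9.30 at P28 (log2 fold change -0.03).

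Genes of the cell cycle changed over the same ages. The summed level of 12 S phase genes was 310 to 360 CPM at P1, 292 to 518 at P3, 678 to 904 at P7 and 187 to 308 at P28, and all 12 were called lower at P28 against P7. For 14 G2/M genes the sums were 363 to 529 CPM at P1, 257 to 768 at P3, 1295 to 1647 at P7 and 157 to 353 at P28, and all 14 were called lower at P28 against P7. The sum of the 36 members lay between 6010 and 7483 CPM over all 12 libraries. KAT5 and ARID3A had their 3 lowest values, and PRMT1 its lowest mean, at P7, the age at which both cell cycle lists were highest. The mean at P7 was the lowest of the 4 ages in 10 of the 36 members and in 22.6% of all genes, and the highest in 3, HDAC1 (132 CPM), HDAC2 (184 CPM) and SETD5 (364 CPM), and in 21.0% of all genes. Whether dividing cells had a part in these levels was not tested.

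**Figure D5:**
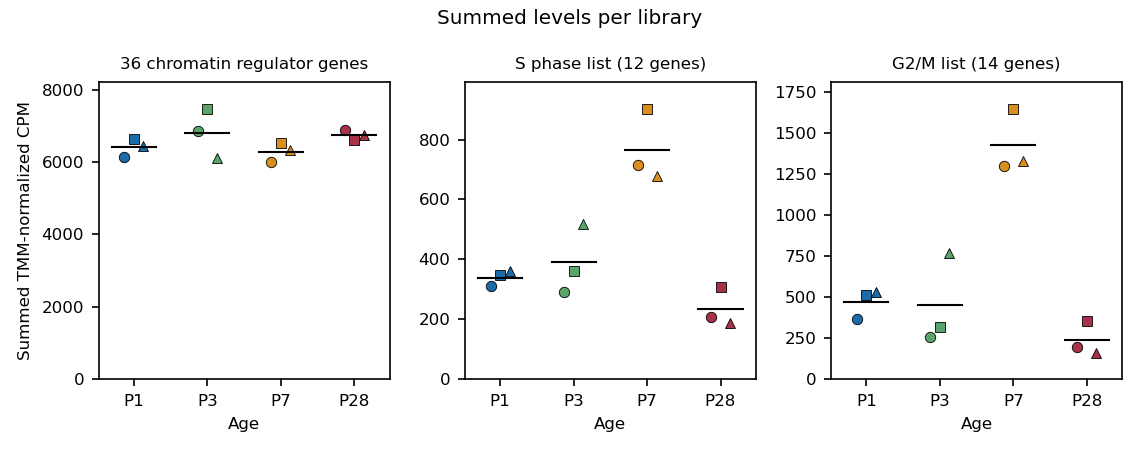
Summed TMM-normalized CPM (vertical axes, from 0) of the 36 members, of 12 S phase genes and of 14 G2/M genes in each of the 12 libraries by age, with the mean as a line. The cell cycle sums are highest at P7, at 678 to 904 and 1295 to 1647 CPM, while the members' sum stays between 6010 and 7483 CPM.

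Cell type markers changed at P28 as well. The 5 fibroblast markers summed to 5040 to 5366 CPM at P1, 2891 to 6086 at P3, 5099 to 5776 at P7 and 1894 to 2255 at P28, and TCF21, FBN1 and FBLN2 were called lower at P28 against P1. Of 7 endothelial markers 1 was called higher at P28 against P1 and 2 lower against P7. Of the 9 cardiomyocyte markers, CKM and MYBPC3 were called higher and ACTC1 lower at P28 against P1. Against P7, the pair in which KAT5 and HDAC1 were called, 4 of the 9 were higher at P28 (TNNC1, TNNI3, CKM and MYBPC3) and 0 lower, and their sum was 73766 to 83693.5 CPM at P7 and 92149.6 to 103878 at P28. The 3 smooth muscle and pericyte markers summed to 456 to 516 CPM at P1 and 280 to 539 at P28, and the 1 erythroid marker tested, EPB42, was below 10 CPM in all libraries. The part of these markers' cell types in the levels of ARID4A, CHD5, HDAC1 and KAT5 at P28 was not tested.

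Other chromatin genes, from lists of Polycomb subunits, further histone enzymes, partners of co-repressors and remodelers, DNA methylation readers and histone chaperones, gave 46 genes for comparison. At P28 against P1, 3 of the 46 were higher and 4 lower, together 15.2%, next to 15.3% of all genes. The higher ones were RCOR2, a CoREST subunit (log2 fold change 1.29, adjusted p = 0.0156), BAP1, a histone deubiquitinase (0.38, adjusted p = 0.0427), and MBD1, a reader of methylated DNA (0.37, adjusted p = 0.0274). The lower ones were CHAF1A (-1.17, adjusted p = 0.0186) and CHAF1B (-1.19, adjusted p = 0.00520), the subunits of the chaperone that places histones on replicated DNA, PHC2, a Polycomb subunit (-0.44, adjusted p = 0.0391), and GADD45A (-0.96, adjusted p = 0.0308), a stress gene linked to DNA demethylation. At P28 against P7, 5 were lower, CHAF1A (-2.61), CHAF1B (-2.11), HMGN2 (-0.73), RUVBL1 (-0.54) and PHC2 (-0.42), which is 10.9% of the 46 where 10.5% of all genes were called lower and 18.8% in either direction. CHAF1A and HMGN2 were called higher at P7 against P1 (4.35% of the 46, against 2.01% of all genes in either direction). Between P1 and P3 edgeR called 0 of the 46 and 0.0543% of all genes, and 6 of the 46 and 15.2% of all genes had an unadjusted p under 0.05. The median log2 fold change of the 46 was 0.03 at P28 against P1, next to 0.07 for the 36 members.

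Of the 4609 genes without a name in the table, 1922 were protein coding, and 231 of these could be paired with a name by identifier. Among the 231, 3 were further genes of these families, DNMT3L, SIRT2 and KDM3B. Unnamed genes without such a pairing may hold more. These 3 are not counted among the members. None was called by edgeR in any comparison. SIRT2, a sirtuin, was 216 ± 46.0 CPM at P1 and 174 ± 5.51 at P28, KDM3B, a demethylase, was 291 ± 12.8 and 336 ± 14.4 CPM, and DNMT3L, a cofactor of DNA methyltransferases, was 1.41 ± 0.167 and 2.15 ± 0.749 CPM (SD, n = 3).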

How the data were processed

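Total RNA of 12 pig hearts was sequenced as paired reads from a stranded library kit after removal of ribosomal RNA. The gene file, as the authors deposited it, holds whole numbers with unequal totals per library, which were taken as raw read counts. The submitters' processing notes name STAR 2.7.9a, MultiQC 1.11 and the Sscrofa10.2 build. Which aligner, counter, strand setting and annotation made the gene table is not given in the sources used here, and positions are printed as in the table. Its last line was incomplete and left out. The circRNA and miRNA files were not used here.

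Columns were placed by the age in their name. Genes that reached 10 counts in 3 or more of the 12 libraries were tested in R 4.3.3 with edgeR 4.0.16 (TMM normalization, glmQLFit and glmQLFTest, all 4 ages in one fit, no covariate, common dispersion 0.0446). Standard errors are the log2 fold change over the root of F. Tests were checked on simulated data. Alternatives were DESeq2's size factors, library totals alone, protein coding genes only, DESeq2 1.42.0, 2 other filters, the study's call rule, only the 2 ages compared, a replicate block and leaving out each library. Tables were joined in Python 3.11.15 with pandas 2.3.3 and drawn with matplotlib 3.10.9.

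The members, gene lists and tests were chosen with earlier results of these data known. Members called in any test were given with all 12 values. Named besides were, per family, the member with the highest mean CPM and that with the smallest p over the 4 ages, and other chromatin genes called between P1 and P28. Further members, other chromatin genes and marker genes that the text names, among them PRDM16, KDM1A, SMARCC1, SIRT6, BRD7, SETD5, SETD6, PRMT7, HMGN2 and RUVBL1, were picked after their values were seen. The values of 1 member that this rule names are not reported here, and it is not drawn. Of 36 members, 35 have the same symbol at the same place in RefSeq's Sscrofa11.1 table.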

Additional observations from a re-analysis of the deposited data

How the results depend on the processing

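No called member changed sign, in the comparison in which it was called, under any of the 20 alternatives. Beside the main counts of 0, 0, 3 and 4 members called (P1 versus P3, P7 and P28, and P7 versus P28) and 4 in the test over the 4 ages, the study's rule gave 4, 1, 3 and 2, and an unadjusted p of at most 0.05 gave 9 in the test over ages. DESeq2 called 1 member between P1 and P7, 6 between P1 and P28 and 9 over the 4 ages, next to 6.59%, 19.7% and 32.3% of all genes. With only the 2 ages compared in the fit, 1, 8 and 8 members were called between P1 and P7, P1 and P28, and P7 and P28, next to 6.58%, 22.5% and 31.7% of all genes. Library totals alone left 2 between P7 and P28 and 2 over the 4 ages, next to 17.8% and 20.1%, and shifted the median log2 fold change of all genes to 0.13 between P1 and P7 and -0.12 between P7 and P28. Without a filter on low counts, 2 members were called over the 4 ages, next to 14.7%. The remaining settings, other than the replicate block and the left-out libraries given next, stayed within 1.5 times the main count. Leaving out each library in turn gave 0 to 1 call between P1 and P7, 1 to 10 between P1 and P28, 1 to 8 between P7 and P28 and 2 to 11 over the 4 ages, and 0 throughout between P1 and P3. The counts of 10, 8 and 11 came without P3 replicate 5, next to 25.6%, 28.3% and 30.9% of all genes. Without P3 replicate 6, 5 members were called between P1 and P28 and 7 over the 4 ages, next to 17.6% and 23.2%. Without P28 replicate 6, 1 was called between P1 and P28 and 2 between P7 and P28, next to 8.72% and 12.0%. Between P7 and P28, 2 were called without P7 replicate 4 (all genes 11.7%) or P28 replicate 4 (13.3%), and 1 without P7 replicate 5 (10.6%). Over the 4 ages, leaving out any library of P1, P7 or P28 left 2, next to 13.04% to 20.1%. The cause was not tested.

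The replicate block gave 0, 0, 3 and 4 calls, and 2 over the 4 ages, next to 0.127%, 1.74%, 14.2%, 18.3% and 20.1% of all genes. Over the ages ARID3A and KAT5 were lost. Between P1 and P28 it lost PRDM1 and gained PRDM16. The labels do not say that a number pairs hearts of different ages, and deviations of same-numbered libraries correlated at 0.0382 on average (18 pairs, -0.186 to 0.331), with 3 of 12 libraries closest to their own number, so the numbers were not taken as a pairing of all ages. The 3 pairs of P1 and P28 correlated at 0.331, 0.138 and 0.161, and blocked values stand beside the results they change. Of the low members, CHD5 at P28 is limited by counts of 4 to 8.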
